A study of Mus musculus with 20 samples.

Results

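The genes described here encode hormones and other proteins that fat cells secrete into the blood. The 8 named members are the adipokines Adipoq, Retn and Lep, the complement protease Cfd, the retinol carrier Rbp4, the angiotensin precursor Agt, and the plasma proteins Orm1 and Hp. They are a named list, matched by gene symbol among 18193 genes that had a probe set annotated with exactly 1 symbol on an Affymetrix GeneChip mouse genome array. Of the 8, 7 had 1 such probe set each, and Cfd was not analysed here. Of these 7, 5 (Adipoq, Retn, Rbp4, Orm1 and Hp) reached the level required for testing, a mean log2 value of 8.73 or a signal of 354, along with 11076 genes in all. Lep and Agt lay below it and are given as values.

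RNA came from whole mouse aortas, with 8 aortas combined for each of the 20 arrays, so the spread between replicates is that between pools. In the first experiment, adult C57BL/6J mice ate chow alone (3 arrays, vehicle only), or chow with rosiglitazone, a drug that activates the nuclear receptor PPARγ. The rosiglitazone groups received 3 mg/kg/day for 2 days (3 arrays), 3 mg/kg/day for 14 days (3 arrays), 10 mg/kg/day for 2 days (3 arrays) and 10 mg/kg/day for 14 days (2 arrays). In the second experiment, adult mice with the dominant-negative P465L change knocked into their own PPARγ gene (3 arrays) were set against wild-type littermates (3 arrays), both untreated on standard chow. The change lies in the endogenous locus and therefore acts in every cell type that uses PPARγ. The labels state neither the age beyond adult, nor the sex, nor the zygosity of the P465L mice.

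PPARγ is the master regulator of fat cell differentiation, and thiazolidinediones such as rosiglitazone are its agonists. Fat cells report the state of their stores through secreted proteins: adiponectin (Adipoq) favours insulin sensitivity, leptin (Lep) restrains appetite, and resistin (Retn) opposes insulin action in mice. The aorta is wrapped in perivascular fat, which is brown-like along the thoracic part, and this fat sends its products to the underlying vessel wall.

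All 9 listed smooth muscle markers and all 8 listed endothelial markers reached the level required for testing, as did all 21 measured adipose-enriched genes and 9 of 10 measured brown adipocyte markers. The pools thus held vessel wall and fat. The summed signal of the 21 adipose-enriched genes ran between 338851 and 593996 across the 11 rosiglitazone arrays, against 228169 to 334394 in chow controls, and between 254687 and 467707 in P465L arrays, against 381480 to 562783 in wild-type littermates. In pools of whole tissue, more fat cells and more RNA per fat cell cannot be told apart. To follow fat cell RNA beside each member, an adipocyte score was taken as the mean log2 signal of 14 other fat cell genes. Among them were the lipid droplet gene Plin4, the lipase gene Pnpla2 and the glucose transporter gene Slc2a4.

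The stretches of promoter below show what lies next to the start sites of 3 members that differ in how they followed the adipocyte score. Adipoq and Retn moved with it within groups, and Rbp4 did not, as described further on. Each stretch is the 250 bases before a transcription start in RefSeq's GRCm38.p6 annotation, 5′ to 3′ on the strand of the gene. Capitals mark matches to the motifs searched on both strands. These were the direct repeat that PPARγ binds with its partner RXR, which is AGGTCA followed by any 1 base and AGGTCA again (in 0.0335% of 32851 promoters), its half-sites AGGTCA (14%) and GGGTCA (11.6%), the C/EBP motif TTGCNNAA (9.56%) and TATAAA (12.4%). The half-site AGGTCA lies within the direct repeat, and no match printed here overlaps another.
Adipoq, chr16:23146286-23146535, plus strand: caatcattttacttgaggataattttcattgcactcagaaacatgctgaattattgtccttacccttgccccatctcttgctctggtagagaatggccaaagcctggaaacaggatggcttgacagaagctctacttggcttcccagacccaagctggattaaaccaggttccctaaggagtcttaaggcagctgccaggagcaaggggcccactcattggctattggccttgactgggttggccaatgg
Retn, chr8:3655520-3655769, plus strand: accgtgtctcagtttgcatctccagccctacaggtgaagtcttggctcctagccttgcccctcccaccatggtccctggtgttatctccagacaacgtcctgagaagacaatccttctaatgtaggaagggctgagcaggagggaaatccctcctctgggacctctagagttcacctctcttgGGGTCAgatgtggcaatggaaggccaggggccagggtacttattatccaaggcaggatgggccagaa
Rbp4, chr19:38124812-38125061, minus strand: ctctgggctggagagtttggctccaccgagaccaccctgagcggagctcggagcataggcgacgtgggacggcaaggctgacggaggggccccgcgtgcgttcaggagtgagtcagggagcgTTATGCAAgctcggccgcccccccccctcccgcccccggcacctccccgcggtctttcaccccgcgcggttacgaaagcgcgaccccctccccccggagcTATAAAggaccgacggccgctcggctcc

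The Retn stretch holds the half-site GGGTCA at positions -67 to -62 from the start. The Rbp4 stretch holds a C/EBP match on the opposite strand at -128 to -121 and TATAAA at -28 to -23, while the Adipoq stretch holds none of the motifs. The stretch before a second Rbp4 start, not printed, holds the half-site GGGTCA on the opposite strand at -53 to -48. The Lep promoter, searched in the same way, holds a C/EBP match at -55 to -48, and the Agt promoter holds TATAAA at -30 to -25. Each match describes the letters only and is no evidence of binding.

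Adipoq (chromosome 16, 23146536 to 23157968, GRCm38) is made almost only by fat cells. Its signal on the deposited linear scale was 31584, 33892 and 18240 on the 3 chow control arrays. It was 79369, 31840 and 50339 at 3 mg/kg/day for 2 days, and 31627, 62445 and 45895 at 3 mg/kg/day for 14 days. With 10 mg/kg/day it was 40771, 42677 and 40844 after 2 days, and 57818 and 43794 after 14 days. Rosiglitazone arrays were mostly higher: all 5 arrays at 10 mg/kg/day lay above all 3 chow controls, while 1 array of each 3 mg/kg/day group fell within their range. Averaged over the 4 rosiglitazone groups, Adipoq was 1.73-fold higher than in chow controls, a log2 difference of 0.79 ± 0.25 (SE), which did not pass the test over all genes (adjusted p = 0.153). The third chow control, lowest for Adipoq, carries part of this: without it the difference was 0.51 (adjusted p = 0.496).

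Retn (chromosome 8, 3655770 to 3659818) had signals of 3371, 4298 and 2893 in chow controls. They were 9113, 2334 and 4834 at 3 mg/kg/day for 2 days, and 2285, 3054 and 4115 at 3 mg/kg/day for 14 days. With 10 mg/kg/day they were 2981, 3177 and 3831 after 2 days, and 2469 and 2876 after 14 days. The 3 mg/kg/day, 2 day group held both the highest and one of the lowest values of the experiment, with a mean of 5427 ± 3428 (SD, n = 3), and only the 10 mg/kg/day, 14 day arrays lay wholly below the chow controls. The average difference from chow was -0.05 ± 0.28 (log2, SE; adjusted p = 0.964).

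Hp (chromosome 8, 109575128 to 109579172) encodes haptoglobin, a haemoglobin scavenger that liver and fat both secrete. Its signals were 10446, 10058 and 5475 in chow controls. They were 16255, 5285 and 7671 at 3 mg/kg/day for 2 days, and 4326, 6725 and 6872 at 3 mg/kg/day for 14 days. At 10 mg/kg/day they were 4116, 3590 and 4124 after 2 days, and 4616 and 3742 after 14 days. Every array at 10 mg/kg/day lay below every chow control, at either time, whereas both 3 mg/kg/day groups overlapped them. The difference from chow was -1.07 ± 0.33 after 2 days at 10 mg/kg/day (log2, SE; adjusted p = 0.141) and -0.99 ± 0.37 after 14 days (adjusted p = 0.284). Averaged over the 4 groups it was -0.62 ± 0.27 (adjusted p = 0.292), and -0.92 without the third chow control (adjusted p = 0.252).

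Orm1 (chromosome 4, 63344556 to 63348163) encodes orosomucoid, an acute-phase plasma protein made by liver and fat. Its signals were 1345, 1375 and 819 in chow controls. They were 1908, 766 and 1168 at 3 mg/kg/day for 2 days, and 483, 1022 and 1004 at 3 mg/kg/day for 14 days. The higher dose gave 543, 694 and 841 after 2 days and 431 and 337 after 14 days. The 2 arrays of the 10 mg/kg/day, 14 day group were the lowest of all 20, and only this group lay wholly below the chow controls. Its difference from chow was -1.43 ± 0.37 (log2, SE; adjusted p = 0.111), a 2.70-fold lower level. Averaged over the 4 groups, Orm1 had -0.64 ± 0.26 (adjusted p = 0.268). Over both times, Orm1 at 10 mg/kg/day stood -0.84 ± 0.25 from its level at 3 mg/kg/day and Hp -0.81 ± 0.25, neither past the test (adjusted p = 0.254 for both).

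Rbp4 (chromosome 19, 38116620 to 38125321), which carries retinol in plasma and is secreted by liver and fat, varied least among the tested members. Its group means were 19309 ± 687 in chow controls, 19009 ± 1863 at 3 mg/kg/day for 2 days and 16970 ± 1499 at 3 mg/kg/day for 14 days (SD, n = 3 each). They were 17841 ± 1258 (SD, n = 3) at 10 mg/kg/day for 2 days and 18286 ± 98.5 (SD, n = 2) for 14 days. The average difference from chow was -0.10 on the log2 scale, with a 95% interval of -0.26 to 0.06.

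Lep (chromosome 6, 29060221 to 29073876) was dim throughout, with signals of 251, 225 and 220 in chow controls. They were 170, 127 and 194 at 3 mg/kg/day for 2 days, and 216, 285 and 122 at 3 mg/kg/day for 14 days. The higher dose gave 15.8, 17.4 and 125 after 2 days, and 226 and 161 after 14 days. All arrays of both 2 day groups lay below every chow control, and 2 of those at 10 mg/kg/day below every other array of the series. Of the genes tested, 6.92% lay wholly below the chow controls at 3 mg/kg/day for 2 days and 13.5% at 10 mg/kg/day for 2 days. These shares cover brighter genes, which reached the level for testing that Lep did not. The log2 difference of the 10 mg/kg/day, 2 day group from chow was -1.39 with the offset of 72 added to all signals, and it moved with that choice: it was -2.22 with an offset of 16 and -0.80 with an offset of 200. Fitted with no level filter, it had an adjusted p of 0.102. Agt (chromosome 8, 124556587 to 124569706) had signals between 17.4 and 58.6 on the 11 rosiglitazone arrays and between 22 and 31.8 in chow controls. It lay wholly above the chow controls at 3 mg/kg/day for 2 days, as did 5.08% of tested genes, and at 10 mg/kg/day for 14 days, as did 14.8%. Agt did not reach the level for testing either, so its shares too come from brighter genes.

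**Figure D1:**
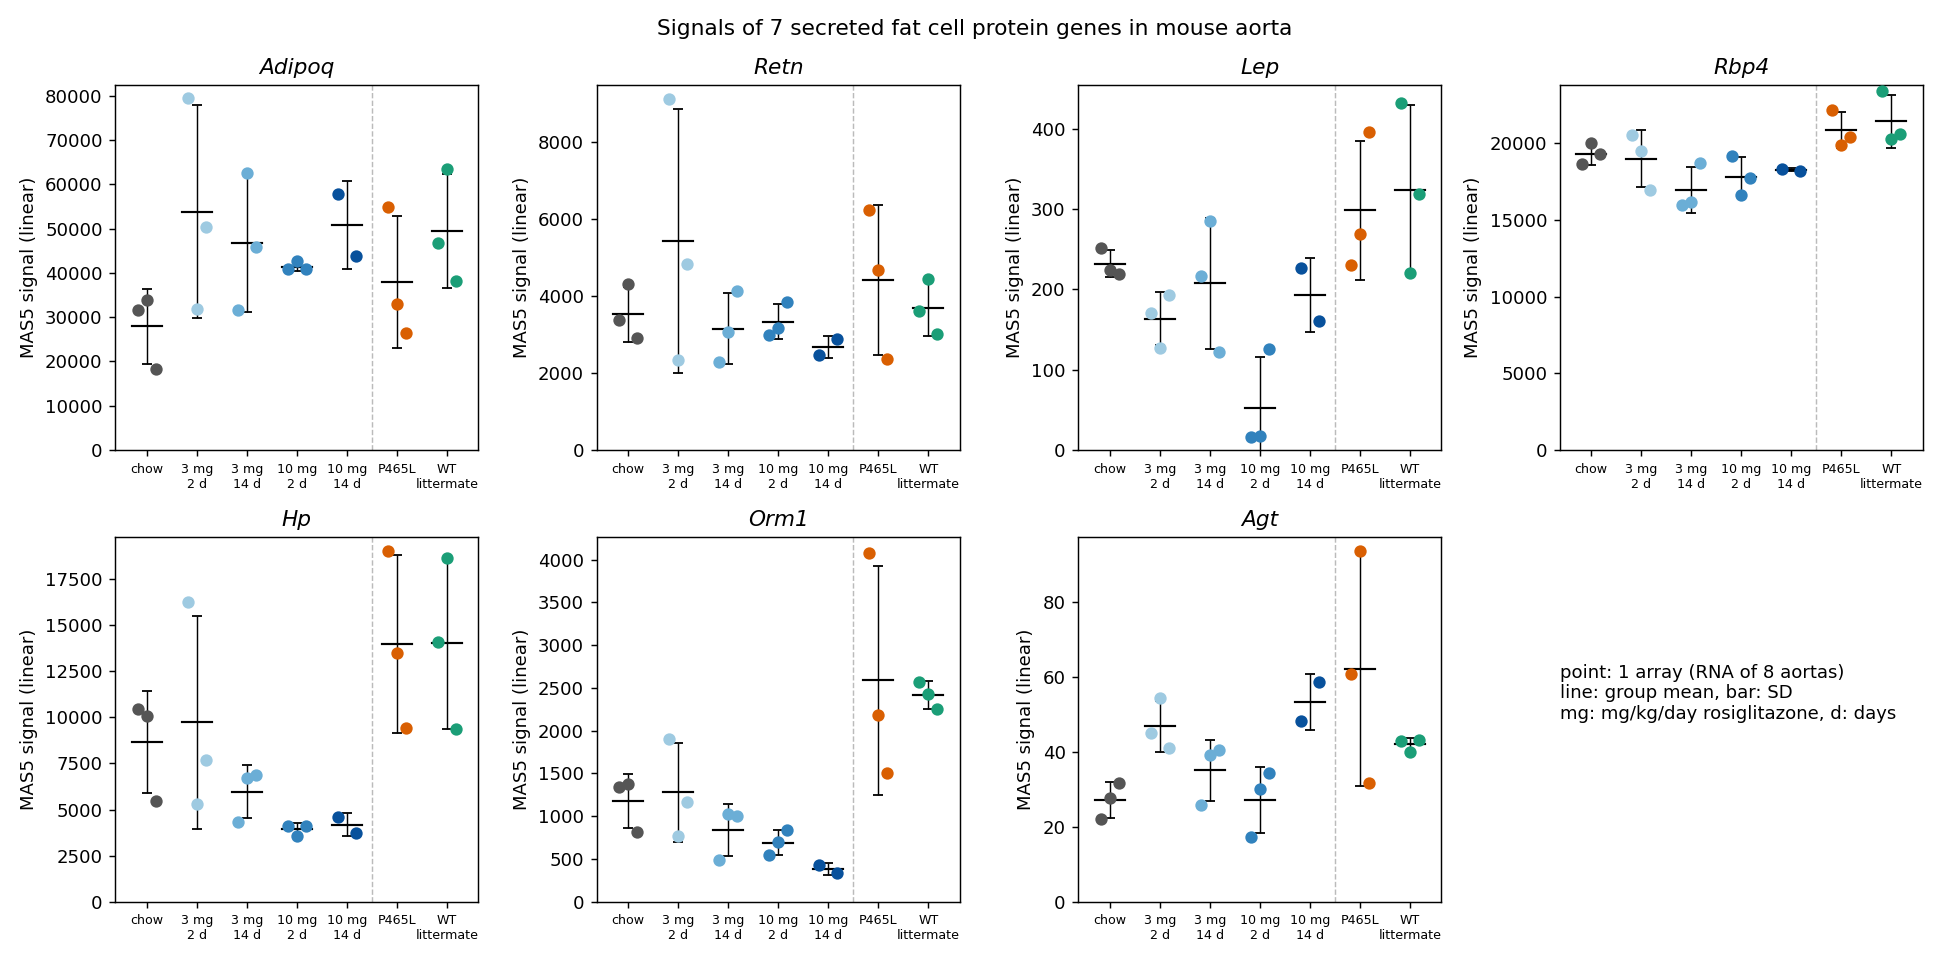
Signal of each measured member (vertical axes, linear MAS5 signal from 0) in the 7 groups (horizontal axes), with 1 point per array, a line at the group mean and bars of 1 SD. At 10 mg/kg/day, Hp lies below and Adipoq above all chow controls, Orm1 is lowest after 14 days at that dose, and Rbp4 shows the least spread.

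Over the tested members, 0 of 5 were called (adjusted p under 0.05) for the average of the rosiglitazone groups, where 48 genes or 0.433% of all tested were called (1 gene without the third chow control). Likewise 0 of 5 were called at 10 mg/kg/day for 2 days (0.506% of all genes) and for 14 days (0.271%), and 0 of 5 in the groups at 3 mg/kg/day, the dose, the time and the dose by time comparisons, in which no gene at all was called. The counts at an unadjusted p under 0.05 over all genes were 977 at 3 mg/kg/day for 2 days and 916 for 14 days. The places where a member's arrays did not overlap the chow controls are to be read against the same share over all genes. After 14 days at 10 mg/kg/day, Hp, Orm1, Retn and Rbp4 (18356 and 18217, against a chow minimum of 18634) lay wholly below the chow controls, as did 20.3% of all genes, and Adipoq wholly above, as did 14.8%. After 2 days at that dose Hp lay wholly below, as did 13.5%, and Adipoq wholly above, as did 10.2%. The members' median log2 difference in the average comparison was -0.10, beside -0.02 over all tested genes. An exact two-sided permutation test of 11 against 3 arrays gave p = 0.0137 for Adipoq, p = 0.192 for Orm1 and p = 0.173 for Hp. Adjusted over the 14 such exact tests, the permutation p of Adipoq was 0.192.

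Much of the scatter within groups was shared. When each array's deviation from its group mean was taken, Adipoq and Hp correlated at r = 0.94 over the 20 arrays, Adipoq and Orm1 at 0.90, and Adipoq and Retn at 0.81, while Adipoq and Rbp4 reached 0.20. These are descriptions, since the values of an array share its pool and its scaling. The same deviations followed the adipocyte score. Per unit of score, Adipoq moved by 1.03 ± 0.08, Retn by 1.03 ± 0.19, Orm1 by 1.04 ± 0.11 and Hp by 1.08 ± 0.12 log2 units (SE), so that a doubling of the score genes came with about a doubling of each. Rbp4 moved by 0.06 ± 0.07, Lep by -0.02 ± 0.26 and Agt by 0.06 ± 0.10. The score itself was 12.75, 12.63 and 12.06 in chow controls, and it ran between 12.29 and 13.68 on the 11 rosiglitazone arrays. Its average difference between rosiglitazone and chow was 0.40 ± 0.28 (SE).

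**Figure D2:**
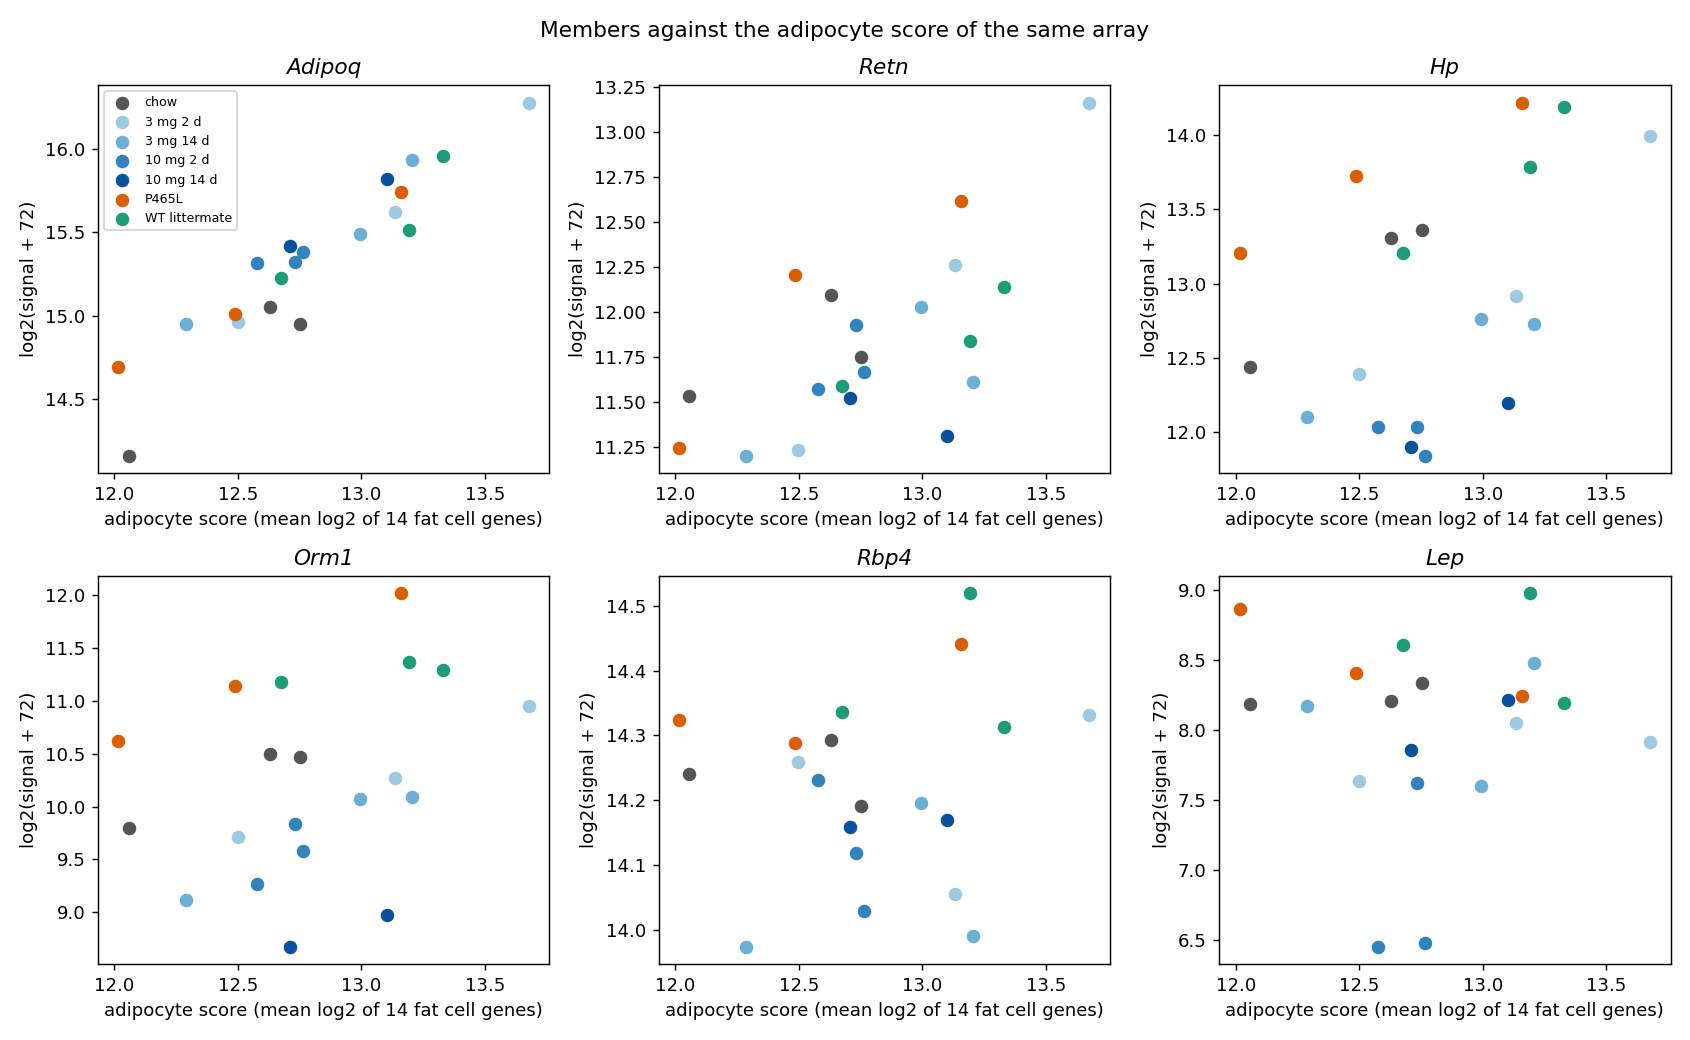
Log2(signal + 72) of 6 members (vertical axes) against the adipocyte score of the same array (horizontal axes, mean log2 of 14 fat cell genes), with 1 point per array coloured by group. Adipoq rises with the score, Hp and Orm1 form parallel bands in which the rosiglitazone arrays lie below the chow, P465L and wild-type arrays of like score, and Rbp4 and Lep show no slope.

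With the score as a covariate in the same fit, the standard errors of all tested members but Rbp4 shrank, and 3 of 5 tested members were called for the average of the rosiglitazone groups, beside 1.23% of all genes. Haptoglobin and orosomucoid fell and adiponectin rose at a given score. In log2 units, Hp fell by 1.06 ± 0.11 (SE, with an adjusted p of 3.55e-05) and Orm1 fell by 1.06 ± 0.13 (adjusted p = 0.00017), each a 2.08-fold lower level. Adipoq rose by 0.37 ± 0.08, or 1.29-fold (adjusted p = 0.0277). Retn had -0.46 ± 0.17 (adjusted p = 0.192) and Rbp4 -0.13 ± 0.08 (adjusted p = 0.449). Leaving out each of the 20 arrays in turn from this fit kept Hp and Orm1 called 20 times out of 20, with adjusted p up to 0.00284 and 0.00438. Adipoq stayed called in 16 of 20. Its adjusted p was 0.212 without the first chow control, 0.126 without the third, 0.0712 without the first array at 3 mg/kg/day for 14 days and 0.0602 without the second at 10 mg/kg/day for 14 days.

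In that fit, the fall of Hp and Orm1 was larger at 10 than at 3 mg/kg/day. Compared with 3 mg/kg/day, 10 mg/kg/day had Hp lower by a log2 difference of -0.63 ± 0.10 (SE; adjusted p = 0.0121) and Orm1 by -0.67 ± 0.11 (adjusted p = 0.0181), where 0.0993% of all genes were called. Against chow, Hp had -0.61 after 2 days at 3 mg/kg/day (adjusted p = 0.495), -0.88 after 14 days at 3 mg/kg/day (adjusted p = 0.00516), -1.29 after 2 days at 10 mg/kg/day (adjusted p = 2.36e-05) and -1.45 after 14 days at 10 mg/kg/day (adjusted p = 2.26e-05). Orm1 had -0.59, -0.86, -0.91 and -1.87 in the same groups, with adjusted p of 0.495, 0.0208, 0.00295 and 3.85e-06. Of all genes, 0% were called at 3 mg/kg/day for 2 days, 0.0903% for 14 days, and 2.17% and 1.15% at 10 mg/kg/day for 2 and 14 days. The dose difference rests in part on single arrays, and was called in 18 of 20 fits for Hp and 17 of 20 for Orm1 with 1 array left out. Without the first array at 10 mg/kg/day for 14 days the adjusted p was 0.107 for Hp and 0.13 for Orm1. It was 0.0599 for Hp without the first array at 3 mg/kg/day for 14 days, and for Orm1 0.0515 without the third array of that group and 0.0606 without the second at 3 mg/kg/day for 2 days. For time, 14 against 2 days, Orm1 had -0.61 ± 0.11 (adjusted p = 0.0599) and Hp -0.21 ± 0.10 (adjusted p = 0.915), and neither was called, beside 0.0181% of all genes. Retn came nearest to a call at 10 mg/kg/day for 14 days, with -0.81 ± 0.23 (adjusted p = 0.0903). The score is no neutral yardstick, since it is built from fat cell genes, some of them known PPARγ targets, and its own mean was higher with rosiglitazone than in chow controls. Without the score, the 3 mg/kg/day, 2 day differences from chow were 0.07 for Hp and 0.06 for Orm1. The dose differences without it, -0.81 for Hp and -0.84 for Orm1, were not called (adjusted p = 0.254 for both).

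**Figure D3:**
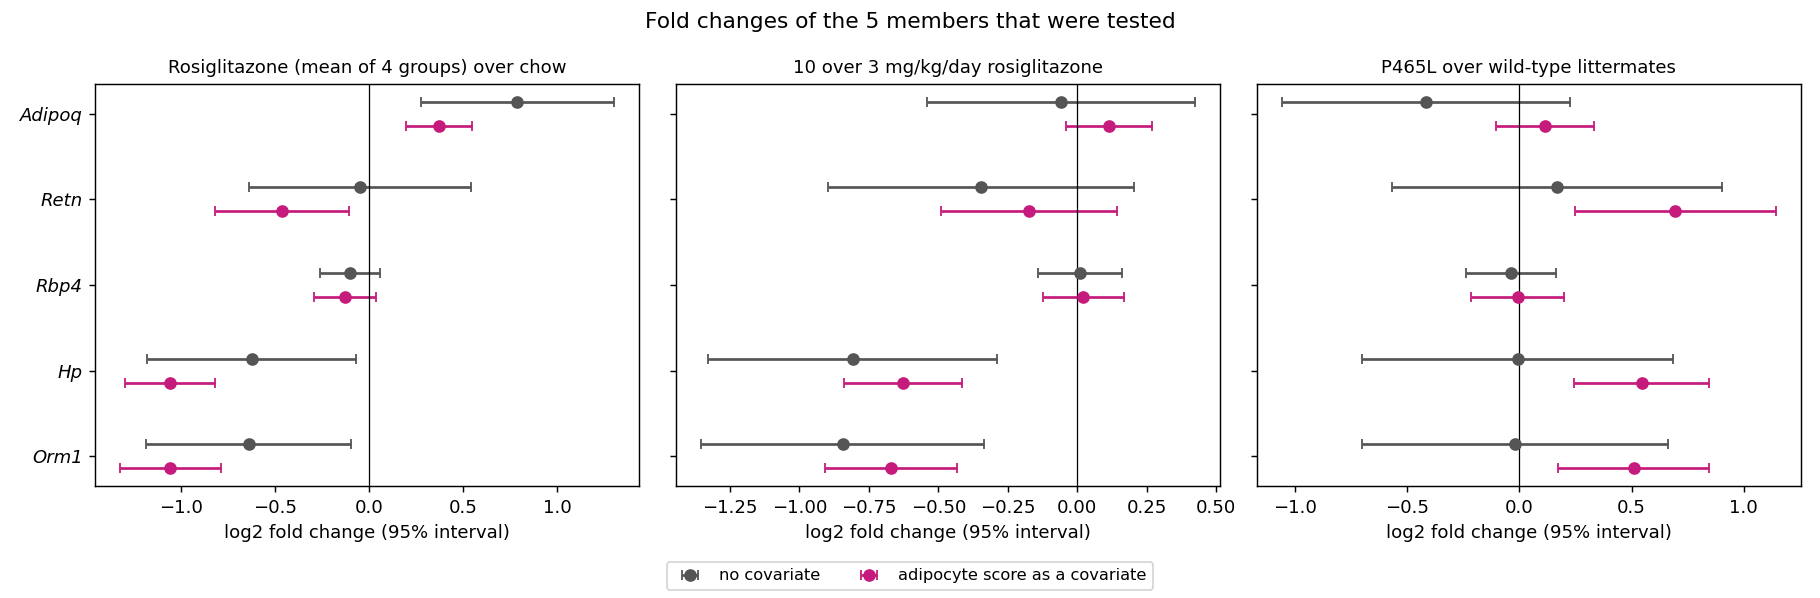
Log2 fold change with its 95% interval (horizontal axes) for the 5 tested members, without a covariate (grey) and with the score as a covariate (magenta), in 3 comparisons. With the covariate, the intervals narrow for all but Rbp4, and Hp and Orm1 sit near -1.06 for rosiglitazone over chow and above 0 for P465L over wild type.

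Each member was also set against Adipoq on the same array, with the chow mean at 0 on the log2 scale. This is no independent reading of the pattern. Adipoq followed the score closely (r = 0.97 over deviations from group means), and its own rise with rosiglitazone lowers every member set against it. Hp relative to Adipoq was 0.10, -0.06 and -0.04 in chow controls. It was -0.60, -0.89 and -1.02 at 3 mg/kg/day for 2 days, and -1.16, -1.52 and -1.04 at 3 mg/kg/day for 14 days. The higher dose gave -1.60, -1.86 and -1.60 after 2 days, and -1.94 and -1.84 after 14 days. Orm1 relative to Adipoq ran between -2.38 and -0.79 on rosiglitazone arrays, against -0.09 to 0.10 in chow controls. Hp and Orm1 lay below all chow controls on 11 of 11 rosiglitazone arrays, which 11.9% of all genes did by this measure, since Adipoq itself was higher. Relative to the adipocyte score, Hp and Orm1 again lay below all chow controls on 11 of 11 arrays, which 1.16% of genes did. Retn did so on 6 of 11, Rbp4 on 7, Lep on 10 and Agt on 3, counts for which no share over all genes was taken. Rbp4, Lep and Agt did not move with the score, so setting them against it lowers them wherever the score is higher.

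**Figure D4:**
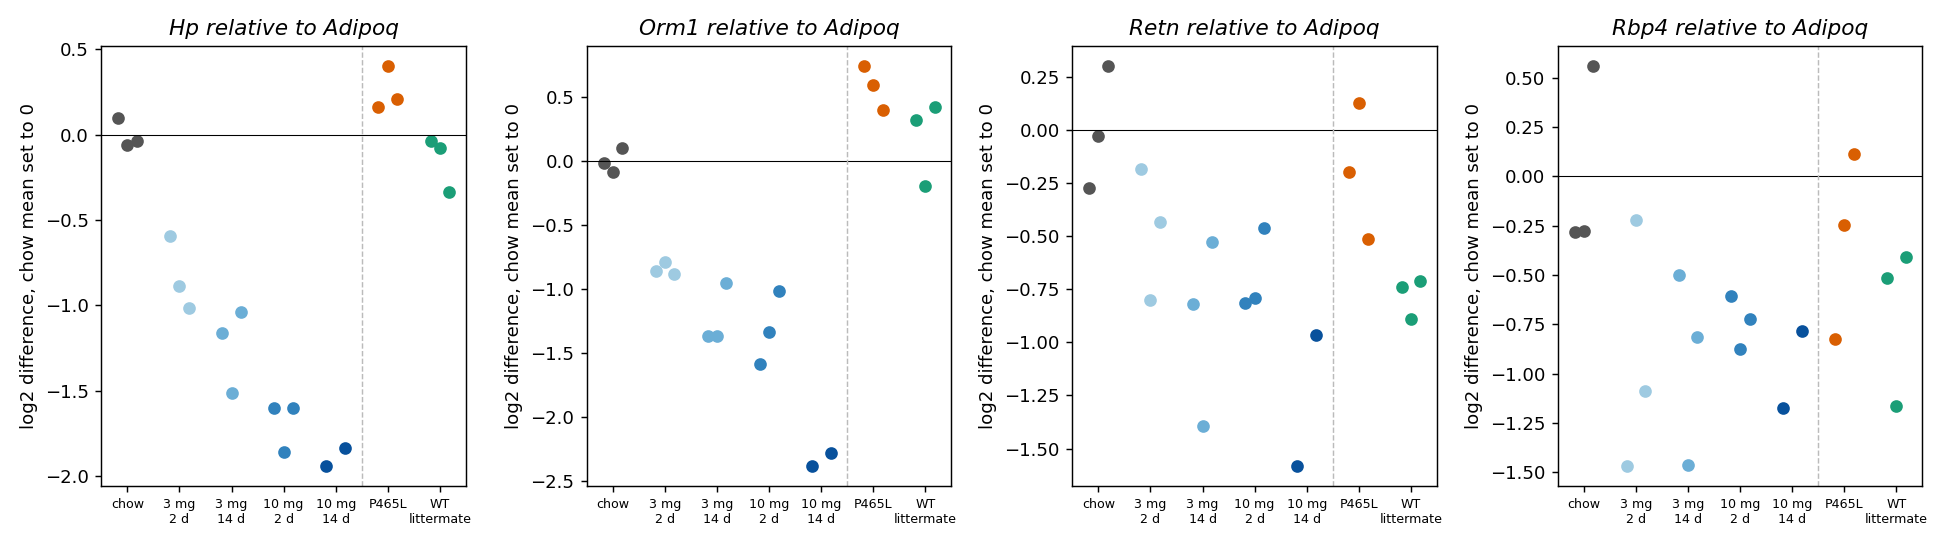
Log2 level of Hp, Orm1, Retn and Rbp4 relative to Adipoq on the same array (vertical axes, chow mean set to 0) in the 7 groups (horizontal axes), 1 point per array. All 11 rosiglitazone arrays lie below all chow controls for Hp and Orm1, furthest at 10 mg/kg/day for 14 days, while P465L arrays lie at 0.16 to 0.40 for Hp.

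In the P465L experiment, the members differed little in level between genotypes. Adipoq had signals of 54820, 32941 and 26362 in P465L arrays, against 46689, 63458 and 38244 in wild-type littermates, with the ranges overlapping and a log2 difference of -0.42 ± 0.31 (SE; adjusted p = 0.757). Retn had 6217, 4660 and 2358 in P465L arrays, against 3602, 4437 and 3007 in wild-type littermates, a difference of 0.17 ± 0.35 (adjusted p = 0.923). Hp had 19019, 13483 and 9399 in P465L arrays, against 14075, 18614 and 9359 in wild-type littermates, and Orm1 had 4080, 2185 and 1503 in P465L arrays, against 2574, 2434 and 2250 in wild-type littermates. Their log2 differences were -0.01 and -0.02, and the P465L arrays were the more scattered for Orm1. Rbp4 averaged 20846 ± 1174 in P465L arrays and 21437 ± 1723 in wild-type littermates (SD, n = 3 each), and Lep averaged 299 ± 86.4 in P465L arrays and 324 ± 106 in wild-type littermates. Agt averaged 62 ± 31 in P465L arrays and 42 ± 1.8 in wild-type littermates. None of the 5 tested members was called, where 2 genes or 0.0181% of all tested were, and 821 genes had an unadjusted p under 0.05. With 3 arrays against 3, an exact permutation test cannot give less than 0.1.

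The adipocyte score was lower in P465L arrays, by a log2 difference of -0.51 ± 0.35 (SE), and 20 of 21 adipose-enriched genes had lower means. At a given score, Retn, Hp and Orm1 in P465L arrays had positive differences of 0.69 ± 0.22, 0.55 ± 0.14 and 0.51 ± 0.16 (log2, SE). These had unadjusted p of 0.0041, 0.0011 and 0.0047 and adjusted p of 0.764, 0.524 and 0.809, so none was called, beside 0.0271% of all genes. With the score in the fit, Hp and Orm1 thus had a negative difference with the PPARγ agonist and a positive one with the dominant-negative receptor. Of these the first alone passed the test, and the difference between them was not tested. Without the score, the P465L differences were -0.01 for Hp and -0.02 for Orm1. The average rosiglitazone differences without it were -0.62 for Hp and -0.64 for Orm1, and neither was called.

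The untreated wild-type littermates and the chow controls both represent mice with intact PPARγ signalling, but they come from separate experiments, and the labels give no strain for the littermates. All 3 littermate arrays lay above all 3 chow controls for Orm1, with a log2 difference of 1.03 ± 0.33 (SE; adjusted p = 0.0634), and for Adipoq, with 0.84 ± 0.31 (adjusted p = 0.102). They also did for Rbp4, with 0.15 ± 0.10 (adjusted p = 0.388), and for the dim Agt, as they did for 11.8% of all genes. None of the 5 tested members was called, beside 6.5% of all genes, nor at a given adipocyte score, beside 5.84%. Strain, experiment and genotype background cannot be told apart in this contrast, so members were set against controls of their own experiment.

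Hp and Orm1 are major products of liver, and Hp is also stored in neutrophil granules, so markers of both are given here. The albumin gene Alb had a signal of 52.6, 23.3 and 196 at 3 mg/kg/day for 2 days and of 210 to 1269 on the other rosiglitazone arrays, against 208, 877 and 1412 in chow controls. In P465L arrays it was 333, 27 and 87.3, against 674, 4338 and 2481 in wild-type littermates. Alb had a log2 difference of -3.45 between P465L arrays and wild-type littermates (adjusted p = 0.106), Serpina1b of the same list had 0.07, and the list's median over 5 tested genes was -1.77. Of the 5 tested genes of the liver list (14 measured), 4 had lower means with rosiglitazone, with a list median of -0.86, 0 called and 2 with an unadjusted p under 0.05. Serpina1b had -0.86 (adjusted p = 0.121), Alb -1.17 (adjusted p = 0.305), Ttr -0.88 (adjusted p = 0.381) and Apoa2 -0.61 (adjusted p = 0.407). The fifth, Cyp2e1, which fat also expresses, had 0.45 (adjusted p = 0.419) and makes up most of the list's signal. The other 13 measured genes had a summed signal of 1473 to 4147 on rosiglitazone arrays, against 2102 to 5190 in chow controls, and of 2901 to 4933 in P465L arrays, against 5965 to 15862 in wild-type littermates. The neutrophil list (12 measured, 3 tested) had a summed signal of 3237 to 4326 at 10 mg/kg/day for 14 days, 5434 to 5912 at 10 mg/kg/day for 2 days, and 3979 to 6884 over both 3 mg/kg/day groups, against 4438 to 5462 in chow controls. In P465L arrays it was 6068 to 8799, against 7329 to 8938 in wild-type littermates. The part of liver or neutrophil RNA in the values of Hp and Orm1 was not tested.

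By likeness over the 20 arrays, Adipoq followed most closely the brown fat cytochrome oxidase subunit gene Cox7a1 (r = 0.97), Slc36a2 and Ppa1. Orm1 and Hp each followed Scd1, the stearoyl-CoA desaturase (r = 0.94 and 0.95), with the fatty acid synthase gene Fasn and each other (r = 0.93) completing the nearest 3. Retn was nearest to Mcf2l, Tst and Bscl2 (r = 0.80 for the first), and Rbp4 to Zfand3, Vipas39 and Abcf1 (r = 0.91 for the first). These correlations take in differences between groups and between the experiments. Over deviations from group means, other genes came nearest. They were Cdo1, Dbi and Dgat1 for Adipoq, Ptger3, Fcor and Coasy for Retn, and 4833439L19Rik, Plp2 and Cers4 for Rbp4. For Orm1 they were Cidec, Chchd10 and Acp5, and for Hp Bscl2, Bckdha and Tkt. Adipoq and Hp, close within groups, correlated at only 0.30 across all arrays.

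Of 13 tested receptors and binding partners of the members, 5 were higher and 0 were called for the average of the rosiglitazone groups. Their median log2 difference was -0.12. Ttr, also in this list, is given with the liver markers above. The adiponectin receptor genes had -0.29 for Adipor1 (adjusted p = 0.396) and 0.26 for Adipor2 (adjusted p = 0.412), and the leptin receptor gene Lepr had -0.26 (adjusted p = 0.473). Cap1, described in human cells as a resistin receptor, had -0.47 (adjusted p = 0.191). Of the renin-angiotensin genes, the aminopeptidase gene Enpep had 0.33 (adjusted p = 0.16), Ace had -0.28 (adjusted p = 0.274) and the receptor gene Agtr1a had 0.21 (adjusted p = 0.582). In P465L arrays 0 of 13 were called, and Adipor2 had signals of 10001, 7438 and 7080, against 12683, 14079 and 9924 in wild-type littermates (log2 difference -0.58 ± 0.18, SE; adjusted p = 0.494). Ttr had the smallest p of the 13, with signals of 790, 222 and 272, against 725, 2234 and 2203 in wild-type littermates. Between untreated littermates and chow controls, Adipor2, Cap1, Agtr1a and Enpep were called higher in littermates and Ace lower.

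Among genes that handle retinoids, the ligands that Rbp4 carries, the contrast with Rbp4 itself was wide. Rbp7, an intracellular retinol-binding protein gene of fat and endothelium, had signals of 652 to 2376 on the rosiglitazone arrays, against 320, 447 and 187 in chow controls. All 11 rosiglitazone arrays lay above the chow controls, as 0.804% of genes did, and the rise was called (log2 difference 1.97 ± 0.34, SE; adjusted p = 0.0197). It was called in 18 of 20 fits with 1 array left out, and not without the first (adjusted p = 0.0866) or the third chow control (adjusted p = 0.133). It was the only one called of 9 tested in the list, 4 of which were higher. The retinoic acid hydroxylase gene Cyp26b1 had -0.44 (adjusted p = 0.139) and the retinal reductase gene Dhrs3 -0.33 (adjusted p = 0.228). In P465L arrays Rbp7 had 1028, 427 and 310, against 1471, 794 and 777 in wild-type littermates, and was not called (adjusted p = 0.675). Rbp7 was also called higher in the untreated wild-type littermates than in the chow controls.

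Of 25 other secreted fat cell proteins tested, 16 were higher with rosiglitazone and 1 was called. That gene, Angptl4, encodes an inhibitor of lipoprotein lipase and is a known PPAR target. It had signals of 2505 to 7284 on the rosiglitazone arrays, against 2475, 1520 and 1486 in chow controls, and rose 2.39-fold (log2 difference 1.26 ± 0.25, SE; adjusted p = 0.0256). Its call was lost without any 1 of the 3 chow controls (adjusted p of 0.066, 0.151 and 0.179) or without the first array at 10 mg/kg/day for 14 days (adjusted p = 0.058). Angptl4 was also called higher in the untreated wild-type littermates, with signals of 4152, 5156 and 4119, than in the chow controls. The lipase gene Lpl had 0.72 (adjusted p = 0.18). The matricellular protein gene Ccn5 lay below all chow controls on all 11 arrays, as 1.26% of genes did, with -0.47 ± 0.11 (adjusted p = 0.0608). In P465L arrays 0 of these 25 were called and 9 were higher. The 5 tested genes of the alternative complement pathway, to which Cfd belongs, included 2 that were higher with rosiglitazone and 0 that were called, and Retnla, a paralog of Retn, had 0.17 (adjusted p = 0.748). By comparison, all 21 adipose-enriched genes were higher with rosiglitazone, with a median of 0.49 and 1 called, the lipid carrier gene Fabp4, whose call was lost without any 1 of the chow controls (adjusted p up to 0.217) or the first array at 10 mg/kg/day for 14 days. All 9 tested brown adipocyte markers were higher too, with a median of 0.96 and 0 called. Higher values in both lists were not confined to rosiglitazone arrays. In untreated wild-type littermates against chow controls, 20 of 21 adipose-enriched genes were higher, with a median of 0.72 and 4 called, among them Fabp4. All 9 tested brown adipocyte markers were higher in that contrast as well, with 3 called.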

How the data were processed

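The deposited values were linear intensity signals, 1 per probe set, which the authors computed with MAS5, per the submitters' processing notes (no version given). Each array's mean, with 2% of probe sets trimmed at either end, was 1500, so arrays had been scaled to a common total. Of 45101 probe sets, 34945 had 1 symbol, and each gene took its brightest, over all arrays. Signals were analysed as log2(signal + 72), 72 being the 20th percentile, for genes at or above the 50th percentile of probe set means. All 20 arrays entered 1 model of group means in limma 3.58.1 (eBayes with a trend) in R 4.3.3, with 13 residual and 7.3 prior degrees of freedom. Tests were two-sided, with Benjamini-Hochberg adjustment over the genes of a comparison. All 4 rosiglitazone groups share the chow controls. The number of arrays limits the precision. The fitting steps were tested on simulated data. Genes outside the members were named by the 3 smallest p-values of a list and the nearest 3 by correlation, with fixed receptors, paralogs and markers. Alternatives were the offset, filter, normalization, probe set rule, trend, experiment alone, replicate block, array weights, the adipocyte score as a covariate and each array left out. The members and gene lists were chosen with earlier results of these data known. Array letters did not pair samples across groups: 57 same-letter pairs had correlations of -0.30 to 0.36 (median 0.03). Promoters came from RefSeq (GRCm38.p6) and were searched with Python 3.11.15. Cfd was not analysed here.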

Additional observations from a re-analysis of the deposited data

How the results depend on the processing

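The number of tested members called was 0 in each of the 10 comparisons, and stayed 0 with the offset at 16 or 200, with no level filter, with quantile normalization, with no variance trend, with either experiment alone, with the replicate block and with each array left out. Weighting the arrays called 1 member at 10 mg/kg/day for 2 days (Hp, -1.08), 1 at 10 mg/kg/day for 14 days (Orm1, -1.45) and 1 in wild-type littermates against chow (Orm1, 1.01). The adipocyte score as a covariate called 3 in the average comparison, 2 at 3 mg/kg/day for 14 days, 3 at 10 mg/kg/day for 2 days, 2 at 10 mg/kg/day for 14 days and 2 for dose. Leaving out each array from that covariate fit was added after seeing the data. The replicate block gave -1.07 for Hp at 10 mg/kg/day for 2 days (adjusted p = 0.108) and changed no member's call. Some signs turned. Quantile normalization gave Adipoq 0.048 for dose, and Rbp4 0.022 and Hp 0.018 for P465L. Array weights gave Retn -0.089, Orm1 -0.25 and Hp -0.29 at 3 mg/kg/day for 2 days, Adipoq 0.092 and Rbp4 -0.015 for dose and Retn -0.28 for dose by time. The covariate gave Retn -0.21, Orm1 -0.59 and Hp -0.61 at 3 mg/kg/day for 2 days, Adipoq 0.12 for dose, Adipoq -0.061 and Retn -0.20 for dose by time, Adipoq 0.11, Orm1 0.51 and Hp 0.55 for P465L, and Retn -0.54 for littermates against chow. Leaving out 1 array moved Adipoq between -0.22 and 0.11 for dose and -0.11 and 0.22 for time, and Hp between -0.27 and 0.25 for P465L and -0.38 and 0.42 at 3 mg/kg/day for 2 days. It moved Orm1 between -0.51 and 0.12 for dose by time, -0.40 and 0.30 for P465L and -0.26 and 0.36 at 3 mg/kg/day for 2 days. It moved Rbp4 between -0.029 and 0.047 for dose, -0.084 and 0.026 for P465L and -0.085 and 0.054 at 3 mg/kg/day for 2 days. It moved Retn between -0.18 and 0.10 in the average comparison, -0.17 and 0.79 for dose by time, -0.13 and 0.56 for P465L, -0.20 and 0.082 at 10 mg/kg/day for 2 days, -0.39 and 0.029 at 3 mg/kg/day for 14 days, -0.046 and 0.92 at 3 mg/kg/day for 2 days, and -0.077 and 0.21 for littermates against chow. The cause of these turns was not tested. Over all genes, the count called was 48 in the average comparison, 1 without the third chow control and 83 without the second array at 3 mg/kg/day for 2 days; it was 28 to 266 under the other alternatives. Counts of 56 and 30 at 10 mg/kg/day for 2 and 14 days ran from 0 to 612 and from 0 to 257, 720 for littermates against chow from 279 to 1036, and 2 for P465L from 0 to 6. Dim signals limit what can be said of Lep and Agt.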
